A study of Homo sapiens with 2 samples.

Results

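KIF14, DEK, SOX4, CDH11, SYK and NGFR, genes tied to the progression of retinoblastoma, were examined in Y79 cells with and without siRNA against Ep-CAM. Y79 is a long-established line of human retinoblastoma cells, grown in suspension, and Ep-CAM is an epithelial adhesion molecule of the cell surface. The genes were taken by name from the gene column of the arrays. They made up 6 of 18833 gene symbols, 7 of 40976 probes and 16 of 43376 spots for transcripts. SOX4 had 2 probes and every other gene had 1. The SYK probe was printed 10 times and each of the other probes once.

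The data were 2 one-color oligonucleotide arrays, 1 for Y79 cells that received no siRNA and 1 for Y79 cells taken 48 h after Ep-CAM siRNA was added. By the methods of the study, the cells of both arrays had been exposed to 5′-azacytidine (AZC), a DNA demethylating drug given so that Y79 cells would express Ep-CAM, while the sample labels name only the siRNA. By the labels and the text of the study the untreated culture was the control, although a caption of the study names a nonsilencing siRNA as the reference. For an untreated control, the effect of transfection and of any siRNA cannot be told apart from that of Ep-CAM loss. With 1 array per condition there was no replicate, no test between the conditions was possible and every ratio compares these 2 arrays. The study describes a p-value cutoff and biologic replicates for its choice of genes, which these 2 arrays do not hold.

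Retinoblastoma starts with loss of the RB1 tumor suppressor in the developing retina, and further gains and losses of chromosome arms accompany its growth. KIF14 lies in the gained long arm of chromosome 1, DEK and SOX4 in the gained short arm of chromosome 6 and CDH11 in the lost long arm of chromosome 16. SYK, a tyrosine kinase of blood cell signaling, is switched on in these tumors without a change of its sequence, and NGFR, a neurotrophin receptor that can promote cell death, tends to be lost as they advance.

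Each probe read 1 stretch of 60 bases of its transcript, so the leading 30 bases of 6 of the 7 member probes are shown, since the values that follow rest on hybridization to such sequences. They are given 5′ to 3′, in lower case throughout because no base is singled out, and as the array design lists them.
KIF14: ccaacaatctaaatcaagcgggattgacgg
DEK: ttttttattaactgcttttgcccatataac
SOX4, brighter probe: ggcggctggttaatatctcacacagtttaa
CDH11: aactaatacgtgccagatataactgtcttg
SYK: atacaggttatttttacgatctgtttccaa
NGFR: tgtggaagggactaggagcactgtagtaaa

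The array design places the probes on the human build hg17. The KIF14 probe lay at chr1:197254246-197254305 on the minus strand and the DEK probe at chr6:18332927-18332985 on the minus strand. The brighter SOX4 probe lay at chr6:21705980-21706039 on the plus strand. The CDH11 probe lay at chr16:63538370-63538429 on the minus strand, the SYK probe at chr9:90737697-90737756 on the plus strand and the NGFR probe at chr17:44946977-44947036 on the plus strand. A gene annotation of hg17 was not used here, so whether a probe lies in a coding or an untranslated part of its exon is not given. G and C made up between 35.0% (DEK) and 45.0% (NGFR) of the bases of these 6 probes.

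The share of well-measured spots was alike on the arrays, with 30542 spots (70.4%) well above background without siRNA and 29492 (68.0%) with it. The median processed signal, which is the brightness after subtraction of background in arbitrary units, was 48.8 and 50.0. Both arrays lay on 1 slide. The probe for Ep-CAM itself (TACSTD1 on the array) read 15.6 and 12.0 and was not well above background on either, so the arrays give no check of the knockdown. Of 11 photoreceptor and retinoblastoma marker genes with a probe, 5 were measured on both arrays, among them CRX and OTX2, while RCVRN, NRL, PDE6H, RXRG and NEUROD1 were dim on both. The summed signal of all 11, dim probes included, was 544 without and 478 with siRNA. All 5 blood cell markers were measured, with a summed signal of 3265 and 4096. CD79A read 1540 and 1456, CD3E 815 and 749, CD14 543 and 599, HBB 340 and 1263, and PTPRC 26.7 and 30.2. The log2 ratios of the 4 markers other than HBB ran from -0.16 (CD3E) to 0.15 (PTPRC). With dim probes included, the summed signal was 393 and 332 for 5 fibroblast markers, of which 4 were measured. It was 348 and 364 for 4 glia markers, of which 3 were measured. Y79 is a cell line and levels of different probes are not comparable, so these sums do not measure a content of cell types. In such bulk RNA, fewer cells with a marker and less RNA per cell cannot be told apart. The part of these markers in the results below was not tested. Across 4415 pairs of probes that share a transcript, which are not independent, the levels had a correlation of 0.23, so a member level read by 1 probe may differ from what another probe of its transcript would read.

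KIF14, DEK and SOX4 represent the gained chromosome arms. KIF14, a motor protein needed for the last step of cell division, was not measured. Its processed signal was 3.79 without and 4.19 with siRNA, and its raw brightness of 70.9 and 81.8 was scored within the range of the 153 negative control spots on both arrays. Both processed values are substitutes that the image software gives such spots, so neither a level nor a ratio can be read for KIF14.

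DEK, a chromatin protein and oncogene, had a signal of 34.1 without and 39.4 with siRNA. The log2 ratio of treated over untreated, after each array was divided by its own median, was 0.17, a level 12.8% higher. The error of this ratio, from the error that the image software gives each spot, was 0.28, so the difference was smaller than its error. Among the 500 measured probes nearest in signal, 75.8% had a lower ratio than DEK, and 90% of them lay between -0.52 and 0.50. Of the probes within 5000 bp of DEK, looked up later, both were for AOF1 on the opposite strand. One of them, 1628 bp away, read 119 and 109, a log2 ratio of -0.16 with an error of 0.21, and the other was dim on both arrays.

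SOX4, a transcription factor of neural progenitors, gave the largest difference of the 6 measured member probes, at 1 of its probes. Its brighter probe read 1996 without and 1124 with siRNA, a log2 ratio of -0.86 or a change of -45.0%. The error of this ratio was 0.20, and the difference was 4.23 times as large. Of the 500 measured probes nearest in signal, 17 had a ratio as low or lower, and the middle 90% of them ran from -0.80 to 0.37 around a median of -0.17. Among 20 probes printed 10 times and nearest in signal, the ratios of the 10 spots of a probe had a median SD of 0.09.

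The dimmer SOX4 probe differed from that. It read 36.3 and 32.3, a log2 ratio of -0.20 with an error of 0.29, so its difference lay within its error. The ratios of the SOX4 probes were 0.66 apart on the log2 scale. Of 2405 pairs of measured probes that share a transcript in the array design, 12.2% were at least that far apart, and the median pair differed by 0.23. Across these pairs, which are not independent, the ratios of the probes had a correlation of 0.15.

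A further probe, looked up by position after the values of SOX4 had been seen, lay 228 bp from the brighter SOX4 probe at chr6:21705752-21705811 on the opposite strand and carries the name of an expressed sequence tag. It read 2388 without and 1517 with siRNA, a log2 ratio of -0.69 with an error of 0.20. Both of these bright probes were thus lower on the siRNA-treated array, while the dimmer SOX4 probe was not lower beyond its error. For the probes nearest in signal to the brighter SOX4 probe, the range given above began at -0.80, around a median of -0.17. The ratio of the tag probe, -0.69, lay inside that range, toward its lower end. Its place among the probes nearest to its own signal was not computed. Whether the tag probe reads the SOX4 transcript was not tested.

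**Figure D1:**
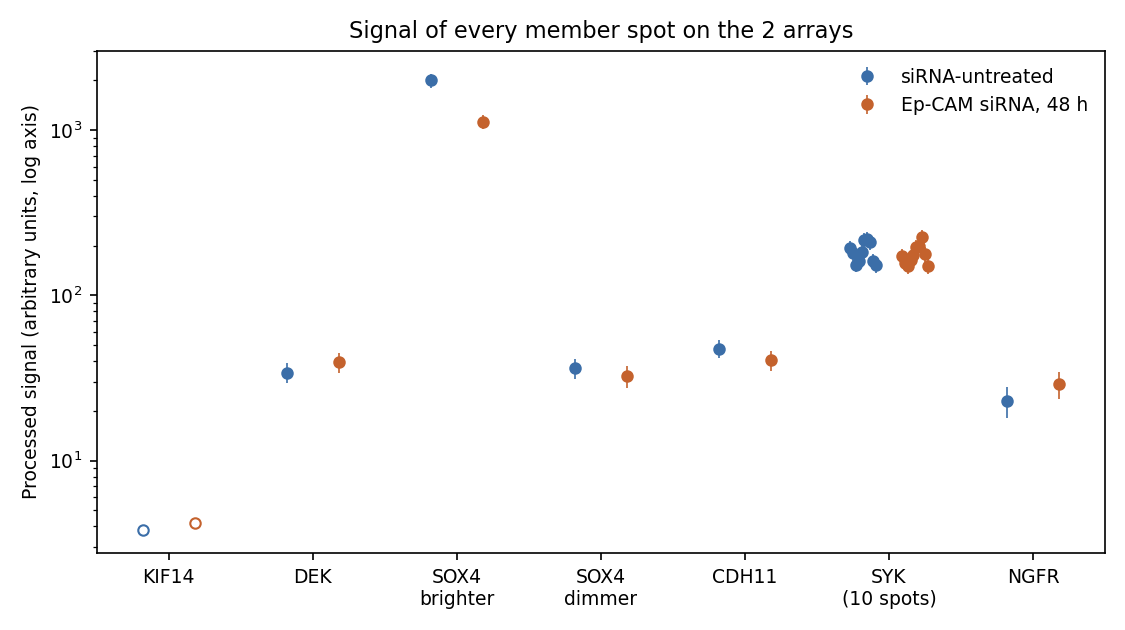
Processed signal in arbitrary units (log axis) of all 16 member spots, blue for the siRNA-untreated array and orange for the array 48 h after Ep-CAM siRNA, with bars for the error given by the image software. Open symbols mark KIF14, which was not well above background and is drawn without a bar. The brighter SOX4 probe reads 1996 and 1124, and the levels of different probes are not comparable with each other.

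CDH11 and NGFR are the members known to be lost in these tumors. CDH11, a cadherin that joins neighboring cells, read 47.5 without and 40.4 with siRNA. Its log2 ratio was -0.27, a change of -16.9%, with an error of 0.27. Of the 500 probes nearest in signal, 16.4% lay lower, so the difference was as large as its error and within the range of most probes.

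A probe found by position in the same way lay 1275 bp from the CDH11 probe, at chr16:63537095-63537154 on the same strand, and also carries the name of an expressed sequence tag. It read 50.7 without and 26.6 with siRNA, a log2 ratio of -0.96 with an error of 0.32. This tag probe was thus lower beyond its error, unlike the CDH11 probe. Its mean log2 signal relative to the array median was -0.43, as was that of the DEK probe. The range given above for the probes nearest in signal to DEK ran from -0.52 to 0.50, and the tag probe lay below it. The place of the tag probe among the probes nearest to its own signal was not computed. Whether the tag probe reads the CDH11 transcript was not tested.

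NGFR, the p75 receptor for nerve growth factor and its relatives, read 23.0 without and 29.0 with siRNA. Its log2 ratio of 0.30, a level 23.1% higher, was below its error of 0.40. Around the NGFR spot, 5.97% of 134 measured spots were past 2-fold, against 0.658% to 1.40% around the single spots of DEK, CDH11 and SOX4, and the part of this in the NGFR ratio was not tested.

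SYK was the member with the most spots, and therefore the one whose ratio carries a measured technical spread. Its 10 spots read 152 at the lowest, 182 at the median and 220 at the highest on the untreated array. On the siRNA-treated array they read 150, 174 and 226. The ranges overlapped almost fully. The mean log2 ratio over the 10 spots was -0.09 ± 0.11 (SD, n = 10 spots), from -0.24 to 0.09, and 8 of the 10 spots were lower with siRNA. These spots are repeats on the same pair of arrays and not replicates of the treatment. The spread of SYK was near that of the 194 measured probes printed 10 times, whose median SD was 0.14.

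**Figure D2:**
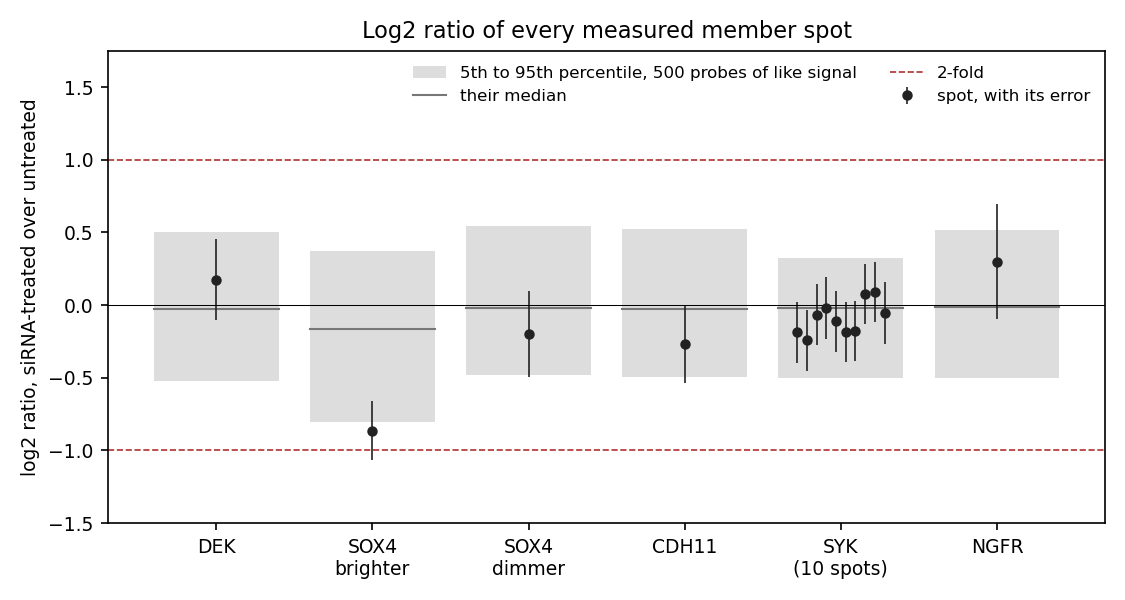
Log2 ratio of siRNA-treated over untreated for each measured member spot, with its error, over gray boxes from the 5th to the 95th percentile of the 500 probes nearest in signal and their median. Only the brighter SOX4 probe, at -0.86, lies outside its box, which ends at -0.80, and no spot passes the dashed lines at 2-fold.

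Taken by count, none of the 6 measured member probes passed 2-fold in either direction, where 2.19% of 29345 probes did. Higher by 2-fold were 1.27% of all probes and 0 of 6 members, and lower were 0.927% and 0 of 6. With 6 probes, a share of this size would give less than 1 call, so the count says little about the members. The ratio was below 0 for 4 member probes and above 0 for 2, beside 55.2% below 0 among all 26976 measured probes. At the thresholds of the series, a ratio above 1.5 or below 0.55, 4.01% of all probes were higher and 1.69% lower, and of the members only the brighter SOX4 probe was counted, as lower. It stood at a ratio of 0.55, just under the threshold.

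**Figure D3:**
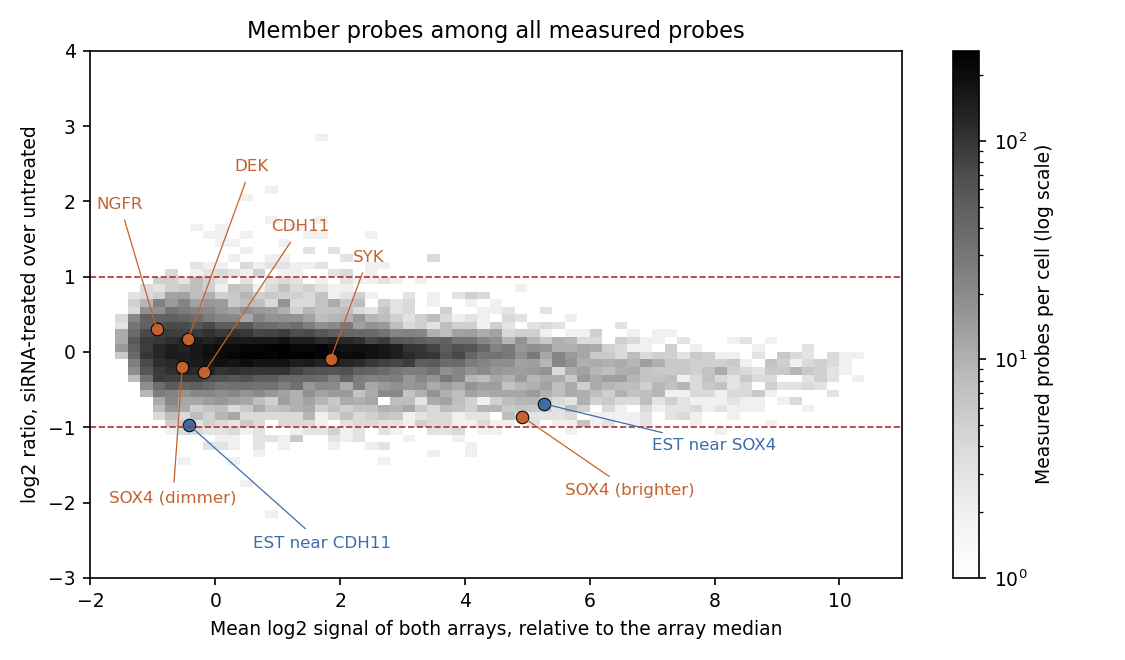
Log2 ratio of siRNA-treated over untreated against the mean log2 signal of both arrays relative to the array median, with gray cells for the number of the 26976 measured probes. The members (orange) with a ratio between -0.27 and 0.30 lie in the dense band, and the brighter SOX4 probe lies at its lower edge beside the expressed sequence tag (EST) probe near it (blue).

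Genes that work with the members were examined in 7 lists of 90 genes, which had 77 genes measured on both arrays, 3 dim on 1 array and 10 dim on both. By the brightest probe of each gene, 1 was higher by 2-fold and 0 were lower, against 1.28% higher, 0.99% lower and 2.27% past 2-fold in either direction among 15652 genes. The median log2 ratio of all 14781 measured genes was -0.03.

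Of the other gain, loss and driver genes of retinoblastoma, all 13 were measured, 0 passed 2-fold and the median log2 ratio was -0.22. MDM4, an inhibitor of p53 from the same gained arm as KIF14, read 28.7 and 37.2, a ratio of 0.34. E2F3, a cell cycle transcription factor from the same gained arm as DEK and SOX4, read 2636 and 1809, a ratio of -0.58. MYCN, an oncogene amplified in some of these tumors, read 259 and 327, a ratio of 0.30, while its other measured probe gave -0.47. The lowest ratio was that of the corepressor BCOR at -0.89, whose other measured probes gave -0.38 and 0.06, and the highest that of ID4 at 0.86. ID4 read only 19.1 and 35.4, where the lowest signals well above background on the arrays were 14.9 and 17.5.

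Beside KIF14, 9 of 12 cytokinesis and central spindle genes were measured, with a median of -0.05 and 0 past 2-fold. They ran from INCENP, of the chromosomal passenger complex, at -0.19 to the kinesin KIF4A at 0.77, in an array region where 14.5% of spots were past 2-fold. Beside DEK, 10 of 11 chromatin and splicing genes were measured, with a median of -0.07 and 0 past 2-fold. The splicing factor U2AF1 was lowest at -0.72, with -1.02 and -0.33 at its other probes, and CSNK2A2, a subunit of casein kinase 2, was highest at 0.36.

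Beside CDH11, 9 of 11 classical cadherins and catenins were measured, with a median of 0.19. Beta-catenin (CTNNB1) was lowest at -0.15, with -0.51 at its other probe, and N-cadherin (CDH2) highest of the genes measured on both arrays at 0.84. CDH2 also had low signals, 24.0 without and 44.1 with siRNA. CDH8 read 20.5 without siRNA, not well above background, and 136 with it, 6.46-fold higher by the scaled signals. Since the untreated signal is uncertain, this is not a strict lower limit. The CDH8 probe lay in a region where 12.4% of spots were past 2-fold. CDH8 was the 1 list gene past 2-fold.

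Beside SYK, 12 of 14 genes of its signaling were measured, with a median of 0.06 and 0 past 2-fold. ZAP70, the other kinase of the SYK family, read 1892 and 1186, a ratio of -0.71, but its other probe gave -0.17. VAV3, a guanine nucleotide exchange factor, was highest at 0.44, with 0.01 at its other probe. Beside NGFR, 13 of 16 neurotrophin ligands, receptors and adaptors were measured, with a median of -0.07 and 0 past 2-fold. NTRK3, the receptor of neurotrophin-3, was lowest with -0.31 and -0.30 at its probes, and the NGFR partner MAGED1 was highest at 0.63, with -0.01 at its other probe. Beside SOX4, 11 of 13 SOX genes and targets were measured, with a median of -0.03 and 0 past 2-fold. SOX1 was lowest with -0.53 and -0.54 at its probes, the first in an array region where 10.1% of spots were past 2-fold. The neuronal tubulin TUBB3 was highest at 0.86, with 0.02 at its other probe.

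**Figure D4:**
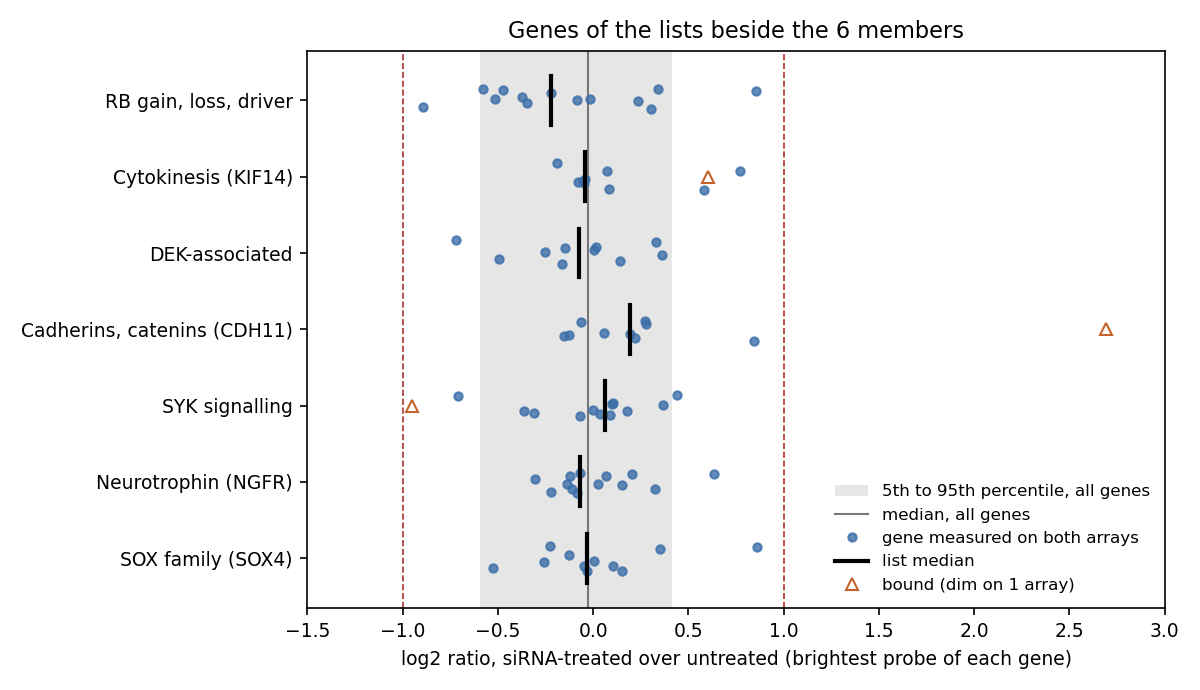
Log2 ratio of siRNA-treated over untreated for the genes of the 7 lists by their brightest probe (points), with list medians (black bars), over the 5th to the 95th percentile of all measured genes (gray). Triangles are values for genes dim on 1 array, and the triangle past the dashed 2-fold line is CDH8, drawn at the 6.46-fold ratio of its scaled signals.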

How the data were processed

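RNA of 2 Y79 cultures, 1 siRNA-untreated and 1 taken 48 h after Ep-CAM siRNA, was hybridized to 1 one-color Agilent array each. The deposited values are spot intensity values that the authors made with Feature Extraction, which the file headers give as version 9.5.3.1 and the labels as another. The processed intensity is background-subtracted and corrected for trends within the array. The deposited series values are the raw median brightness of each spot, and were used as an alternative.

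Spots for transcripts without an outlier mark were kept, scaled to the 50th percentile of their array, floored at 0.01, put on the log2 scale and averaged per probe (Python 3.11.15, numpy 2.4.6, pandas 2.3.3). A probe was measured where at least 50% of its spots were well above background on both arrays. A probe dim on 1 array gives a bound, and one dim on both gives no ratio. A probe was called at a log2 ratio of 1 or more or -1 or less. Local values cover the spots within 10 rows and 5 columns. Normexp used limma 3.58.1 with an offset of 50. The code was tested on simulated data.

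Samples were grouped by their labels. Named are all members, the highest and lowest measured gene of each list, every list gene past 2-fold, MYCN, E2F3, MDM4 and TACSTD1, together with HBB and markers, and probes within 5000 bp of a member, which were looked up later. Members and lists were chosen with earlier results of these data known. Gene names are those of the array design. The sequence and position of 1 SOX4 probe are not reported here. Precision is limited by having 1 array per condition.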

Additional observations from a re-analysis of the deposited data

How the results depend on the processing

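No paired analysis was possible because each condition has 1 array. The 5 measured members gave 52 values under alternatives, with the choice of probe counted only for SOX4. Of these, 0 changed sign and 46 moved by less than the technical spread. Alternatives that only rescale an array shift every ratio by a shared amount. Under them the smallest ratio, that of SYK, ran from -0.09 to -0.05. That shift was below every spread and every ratio, so these values could neither count as moved nor change sign. DEK ranged from 0.05 to 0.21, CDH11 from -0.27 to -0.06, NGFR from 0.13 to 0.33, SYK from -0.41 to -0.01 and SOX4 from -1.38 to -0.20. No ratio of KIF14 was recomputed, since its values are substitutes. With normexp background correction SYK was -0.41 and SOX4 -1.38, and 1 member probe was lower by 2-fold, as 1 was with the ratio of 0.55. Normexp also moved the median of all measured probes to -0.20 and gave 45 probes higher and 1056 lower, against 372 and 272 as reported. Fitted without 1 spot dimmer than its local background, a setting chosen after seeing the data, it gave -0.09 for SYK, -0.78 for SOX4, 0 lower members and 128 higher and 77 lower probes. The brighter SOX4 probe was -0.66 after quantile normalization and -0.70 relative to probes of like signal, also chosen after seeing the data. The mean of both SOX4 probes was -0.53 and the dimmer one alone -0.20, which was 0.09 with normexp. The deposited series values gave 89 higher and 80 lower probes. The SOX4 value relative to probes of like signal moved because the median of those probes, -0.17, was subtracted. For the other values that moved, apart from the normexp fits and the choice of probe, the cause was not tested. KIF14 and Ep-CAM were limited by signal over background.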

Other observations

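The signal of a probe moved with its base composition on these arrays. Across 40976 probes, which are not independent, the mean log2 signal had a Spearman correlation of -0.60 with the number of A bases, 0.55 with C, 0.10 with G and -0.01 with T. Across 26976 measured probes, the log2 ratio had one of 0.09 with the share of G and C. What these values mean for the levels and ratios of the member probes was not tested.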
